A study of Mus musculus with 8 samples.

Results

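The replication-dependent histone genes code for the core histones H2A, H2B, H3 and H4 and the linker histone H1 that package newly copied DNA. Members were the rows of the deposited gene table with a symbol of the H1f1 to H1f5, H2ac, H2bc, H3c or H4c series (or the older Hist1h to Hist4h names), without the 3 names ending in -ps. This gave 66 genes of 52224 in the table: 5 of H1, 18 of H2A, 18 of H2B, 12 of H3 and 13 of H4. Their values were measured in hematopoietic stem cells (HSCs) of mouse bone marrow, sorted as CD48-CD150+ cells of the LSK fraction, with 4 libraries of the DekCon genotype and 4 of the DekTg genotype. DEK is a chromatin-bound protein, and the series title places it in work on replication stress and Fanconi anemia, an inherited disorder of DNA repair. The labels give no age, sex, strain, further allele or agent for either genotype, and they do not name the promoter or the cells in which a DekTg transgene is expressed. They also do not say whether the libraries come from separate mice, so p-values measure the spread between these libraries, which may be technical.

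Most histone mRNAs are unlike other mRNAs of the cell. They are made in large amounts while DNA is copied, they lack introns, and they end in a short stem-loop in place of a poly(A) tail. Stem-loop binding protein (SLBP) holds the stem-loop, and the U7 small nuclear ribonucleoprotein guides the cut just after it. Some histone genes also give longer, polyadenylated transcripts that run past the stem-loop, mainly in cells that are not dividing. Adult HSCs are mostly out of cycle. The labels name mRNA as the input of Geo-seq, an amplification method for small numbers of cells. The priming step was not stated, so the part of the histone mRNA without a tail that it captured was not tested.

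Because the stem-loop defines these genes, it was searched for in their GENCODE M21 transcripts on GRCm38, the build that mm10 names. Of the 66 members, 62 could be matched to an annotated gene through RefSeq, and H2ac25, H2bc24, H2bc27 and H4c16 were not matched. A stem-loop of 16 bases was found in 42 of the 62 matched genes. The element is shown for the most abundant gene of each class that has one and for a variant of H3 and of H4, with the 16 bases of the stem-loop in capitals and up to 5 bases on each side:
H1f3: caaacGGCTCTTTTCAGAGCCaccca
H2ac24: aaaaaGGCTCTTTTCAGAGCCatc
H2bc6: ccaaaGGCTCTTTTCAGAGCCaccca
H3c7: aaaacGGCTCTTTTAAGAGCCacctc
H3c4: ccaaaGGCTCTTTTCAGAGCCacccc
H4c4: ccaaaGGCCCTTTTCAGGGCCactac
H4c9: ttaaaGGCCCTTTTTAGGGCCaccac
The form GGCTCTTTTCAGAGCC stood in 24 genes of the H1, H2A, H2B and H3 classes. The form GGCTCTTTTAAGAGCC, as in H3c7, stood in 5 genes, all of H2B or H3. All 11 H4 genes with a stem-loop had another stem, and 6 of them carried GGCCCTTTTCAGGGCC. The stem-loop lay within 100 bases of the annotated end in 23 genes (37.1% of those matched), farther from it in 19, and was not found in 20.

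The 62 matched genes lay in clusters on chromosome 13 (52 genes between positions 21715763 and 23934851) and chromosome 3 (10 genes between 96219865 and 96270132). In 11 places an H2A gene and an H2B gene started back to back, with 176 to 306 bases between their starts. The stretches between the starts are shown for H2ac6 with H2bc4, the pair of highest summed level, and for H2ac8 with H2bc8, a pair with fold changes of opposite sign, beside the 250 bases before the start of H2bc9, a gene with no such partner. All are RefSeq sequences on GRCm38.p6, and each is read toward the H2A gene or toward H2bc9, all on the minus strand. The stretches are chr13:23683960-23684198 for H2ac6, chr13:23571221-23571395 for H2ac8 and chr13:23543445-23543694 for H2bc9. Capitals mark the CCAAT box (CCAAT), the TATA box (TATAAA) and the octamer that Oct1 binds (ATTTGCAT), each on either strand:
H2ac6: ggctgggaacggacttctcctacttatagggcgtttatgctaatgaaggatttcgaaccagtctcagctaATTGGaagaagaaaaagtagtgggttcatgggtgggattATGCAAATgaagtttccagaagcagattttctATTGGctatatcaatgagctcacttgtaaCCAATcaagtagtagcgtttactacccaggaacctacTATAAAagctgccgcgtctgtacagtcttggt
H2ac8: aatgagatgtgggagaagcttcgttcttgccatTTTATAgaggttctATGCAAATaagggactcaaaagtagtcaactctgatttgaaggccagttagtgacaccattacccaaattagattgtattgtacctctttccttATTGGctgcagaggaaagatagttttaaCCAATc
H2bc9: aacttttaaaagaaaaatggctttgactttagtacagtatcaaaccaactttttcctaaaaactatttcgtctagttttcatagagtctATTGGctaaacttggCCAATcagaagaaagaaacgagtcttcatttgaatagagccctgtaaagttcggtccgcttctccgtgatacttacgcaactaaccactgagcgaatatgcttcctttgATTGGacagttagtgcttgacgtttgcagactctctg
The H2ac6 stretch held 3 CCAAT boxes, 1 TATA box and 1 octamer, the H2ac8 stretch held 2 CCAAT boxes, 1 TATA box and 1 octamer, and the H2bc9 stretch held 3 CCAAT boxes alone. Over the 250 bases before the start, CCAAT was present in 17 of 17 H2A genes and 14 of 14 H2B genes listed in the promoter table, but in 3 of 11 H4 genes. It was present in 37.5% of all 27025 genes of that table. The octamer was present in 6 H2A and 7 H2B genes, in no listed H1, H3 or H4 gene, and in 1.81% of all genes. TATAAA was present in 28 of 57 listed histone genes and 14.3% of all genes. The sequence AAACACA, known from H1 promoters, was present in 4 of 5 H1 genes, 2 H2A and 2 H2B genes, and 7.20% of all genes. None of the 3 stretches shown held it. No motif searched contains another, though matches side by side can share letters, and a match says only that the letters are there.

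The values are normalized read counts: gene counts scaled to a common library size and not to gene length. The libraries held 2525884 to 4101132 reads over genes. Dek, the targeted gene, was listed at 511 ± 100.1 in the DekCon libraries and 2392 ± 403 in the DekTg libraries (SD, n = 4 per group), a log2 fold change of 2.23 (SE 0.16; adjusted p = 1.14e-06 by limma), with no overlap of the groups. Its 4 DekTg values do not correspond to whole reads, although its 4 DekCon values do, so they are not a plain read count and the labels were not checked independently of them. Outside Dek the same holds for 21 values in 5 genes, Cdc20, Cdk1, Fos, Ifit2 and Csf2, and for no histone gene or member of the lists used here; how these values arose was not tested. All 10 genes of the list for the HSC and LSK sort were above 0 in every library. They include Cd48, the marker the gate leaves out on the cell surface, at 195 ± 62.4 in the DekCon libraries and 207 ± 26.3 in the DekTg libraries (SD, n = 4 per group). Their sum was 3002 in DekCon replicate 2, 3713 in DekCon replicate 3 and 5175 to 6098 in the other 6 libraries, so DekCon replicates 2 and 3 stood apart. Cd34, Flt3, Cd48, Ly6a, Procr and Hlf were lower in both than in the other 6 libraries. Cd34 stood at 624 and 1109 there, against 1980 to 2265, and Flt3 at 161 and 385, against 688 to 847. These 2 genes made most of the gap in the sum, so it is not a measure of stem cells alone. Slamf1, Kit, Mecom and Fgd5 were not lower in both, and Slamf1, the gene of CD150, stood at 264 and 278 against 190 to 300. The summed neutrophil and monocyte markers were 4357, 9956, 10111 and 4361 in DekCon replicates 1 to 4 and 2802, 4967, 12434 and 2735 in DekTg replicates 1 to 4, and the summed megakaryocyte markers were 9845 in DekCon replicate 2 and 2116 to 4982 in the others. Libraries 1 and 4 of each group resembled each other. The variance between their read counts was 1.58 and 1.67 times that of counting noise, against 3.62 to 7.83 times for the other 10 pairs within a group, so the 4 libraries of a group may not be equally independent. The summed erythroid markers were 123 to 322 in DekCon and 469 to 592 in DekTg, with 3 of 7 past the threshold (Hba-a1, Hba-a2 and Hbb-bs). The summed B-lymphoid and plasma cell markers were 827 to 1609 and 4800.3 to 5664, with 2 of 8 past the threshold (Igkc and Jchain), while Cd79a reached at most 12.01. No marker of these 2 lists was at 0 in all libraries. Their part in the histone values was not tested.

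No histone gene passed the test between DekTg and DekCon. Of the 66 members, 53 reached a value of 1 in 4 or more libraries and were tested, and 0 of these had a limma adjusted p under 0.05, beside 0.0347% of all 37414 genes tested, or 0.0214% of the genes whose values are all whole reads. EdgeR and DESeq2 on the recovered reads also called 0 members, beside 0.0241% and 0.0374% of all genes. At an unadjusted limma p under 0.05 stood 7 of 53 members, with H1f3 and H2ac18 higher in DekTg and H2ac8, H2ac19, H2ac24, H2bc3 and H4c18 lower, and 6.93% of all genes. The groups did not overlap for 2 members that were higher in DekTg (H1f3 and H2bc9), a rule met by 2.09% of all genes. They did not overlap for 2 that were lower (H2ac8 and H2ac19), a rule met by 1.88% of all genes. H2ac19 was at 0 in every DekTg library and passed the filter through DekCon alone. For H2ac18 the DekTg libraries, where it is high, were enough to pass it. The counts that include either gene carry that limit. Summed with its near-identical copy H2ac18, H2ac19 had a log2 fold change of 0.058 (SE 0.48). The 13 members not tested, 3 of H2A, 4 of H2B, 3 of H3 and 3 of H4, had means of 0 to 3.81. The median log2 fold change of the tested members (DekTg minus DekCon, on log2(value + 1)) was -0.093, with 23 above 0 and 30 below, beside 0.0057 over all genes tested. Of the members, 25 had a mean of at least 10 and held 95.1% of all histone values, and their median was -0.025, beside -0.023 over all 22610 genes tested with such a mean. In bulk RNA, fewer cells in S phase and less histone RNA per cell cannot be told apart.

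**Figure D1:**
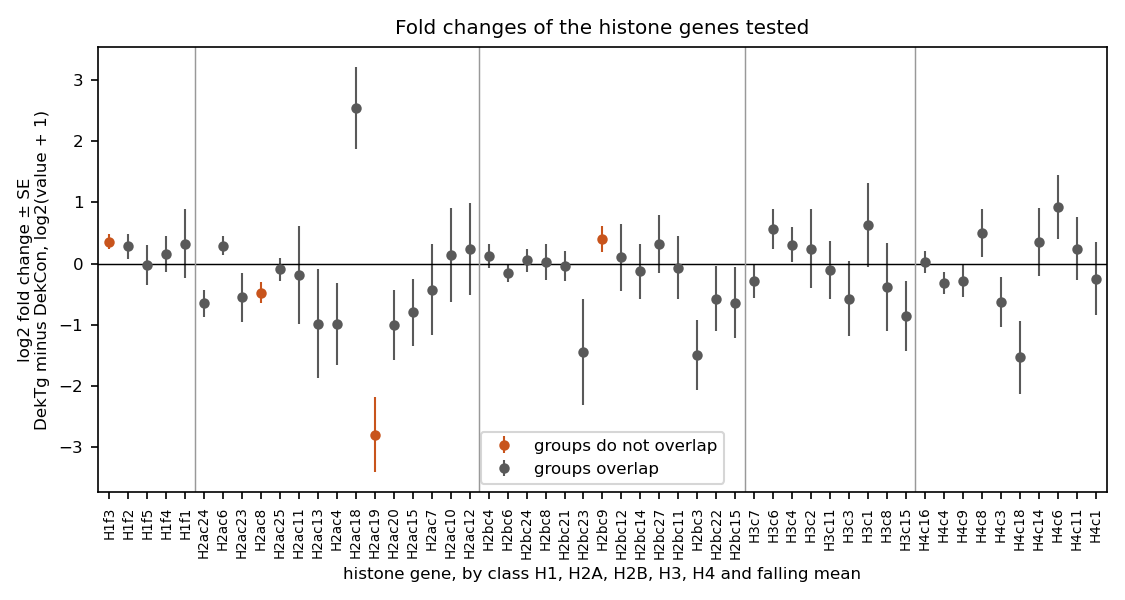
Log2 fold change (DekTg minus DekCon, on log2(value + 1), vertical axis) of the 53 histone genes tested, by class and falling mean (horizontal axis), with bars for the SE of the limma fit. The 4 genes in orange, H1f3, H2ac8, H2ac19 and H2bc9, have groups that do not overlap, and the 2 farthest from 0 are the near-identical genes H2ac18 and H2ac19.

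Summed over a class, H1 was higher in every DekTg library and the other classes overlapped. These sums are descriptions, with no test. The summed normalized read count of all 66 members was 2612 ± 306 in the DekCon libraries and 2282 ± 163 in the DekTg libraries (SD, n = 4 per group), and the groups overlapped. H1 summed to 290.3, 283, 301 and 299 in DekCon replicates 1 to 4 and 389.8, 326, 363 and 375 in DekTg replicates 1 to 4, and the lowest DekTg library lay above the highest DekCon library. H1f3 alone gave 70.9% of the H1 sum, and without it the class stood at 89.2 ± 14.8 and 102 ± 25.3. H2A, which holds 49.4% of all histone values, summed to 1199, 1840.2, 1162 and 1400.0 in DekCon replicates 1 to 4 and 1238, 693, 1091 and 1049 in DekTg replicates 1 to 4. The H2A sum was highest in DekCon replicate 2 and lowest in DekTg replicate 2. Its mean was 1400.3 ± 311 in the DekCon libraries and 1018 ± 231 in the DekTg libraries (SD, n = 4 per group). The log2 ratio of these means was -0.46, and it was -0.30 without DekCon replicate 2 and -0.31 without DekTg replicate 2. Without DekCon replicates 2 and 3 it was -0.35. H2ac24 alone gave 59.6% of the H2A sum, and without that gene the log2 ratio was -0.23. The class then stood at 527 ± 88.9 in the DekCon libraries and 450 ± 65.2 in the DekTg libraries (SD, n = 4 per group).

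The other classes differed less. H2B summed to 572 ± 35.02 in the DekCon libraries and 576 ± 111 in the DekTg libraries (SD, n = 4 per group), with the highest value, 719.5, in DekTg replicate 2. H3, the class of lowest sum, stood at 81.4 ± 5.89 in the DekCon libraries and 80.97 ± 14.9 in the DekTg libraries (SD, n = 4 per group). H4 stood at 265 ± 25.7 in the DekCon libraries and 244 ± 42.6 in the DekTg libraries (SD, n = 4 per group). In all 3 classes the DekCon values lay within or partly within the DekTg range, and the differences of the means were smaller than the SD of either group. DekTg replicate 2 was the lowest library for H2A and the highest for H2B, H3 and H4, with H3 at 92.5 there and 92.2 in replicate 3.

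**Figure D2:**
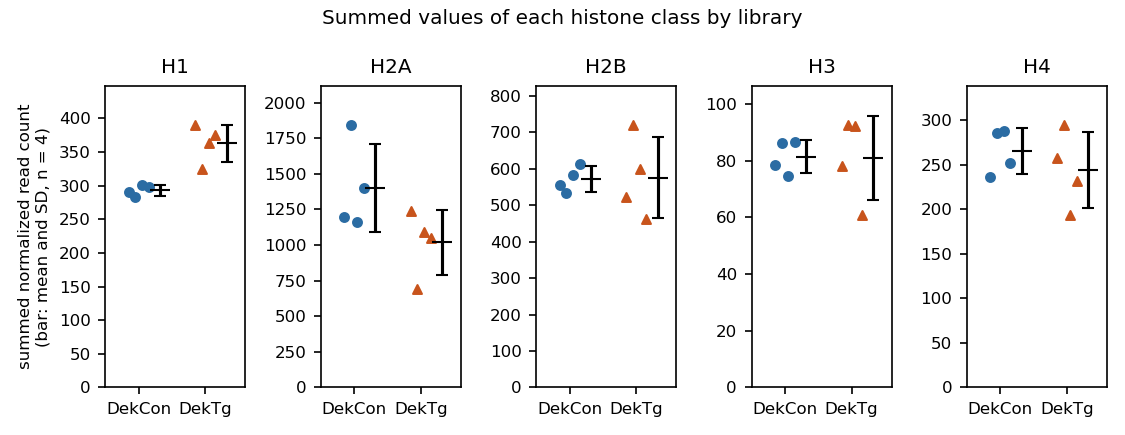
Summed normalized read count of each histone class (vertical axes, from 0) in the 4 DekCon libraries (circles) and 4 DekTg libraries (triangles), with the mean and SD beside them. The H1 values do not overlap, 283 to 301 against 326 to 389.8, and the other classes do.

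The H1 linker histones bind where DNA enters and leaves the nucleosome. H1f3 (older name Hist1h1d, chr13:23553262-23560686, plus strand) codes for linker histone H1.3 and was the class's highest gene. Its value was 216, 183, 222 and 195 in DekCon replicates 1 to 4 and 259, 253, 251 and 282 in DekTg replicates 1 to 4. All 4 DekTg libraries lay above all 4 DekCon libraries, with a log2 fold change of 0.36 (SE 0.12; adjusted p = 0.711 by limma). H1f2, which codes for H1.2, stood at 38.03, 36.4, 41.5 and 50.9 in DekCon replicates 1 to 4 and 62.6, 39.6, 57.3 and 45.1 in DekTg replicates 1 to 4. Its groups overlapped, with a log2 fold change of 0.28 (SE 0.20; adjusted p = 0.804 by limma) that ran from 0.17 without DekTg replicate 1 to 0.39 without DekTg replicate 2. H1f4, for H1.4, stood at 21.4 ± 5.55 in the DekCon libraries and 24.1 ± 6.87 in the DekTg libraries (SD, n = 4 per group). H1f5, for H1.5, stood at 23.6 ± 8.93 in the DekCon libraries and 23.1 ± 8.52 in the DekTg libraries (SD, n = 4 per group). They had log2 fold changes of 0.16 and -0.025 that were smaller than their SE. H1f1, for H1.1, had a mean of 2.99 over all libraries. Of the 5 tested H1 genes, 4 were above 0, with a median of 0.28. The H1f3 transcript is annotated over 7425 bases of exon, and its stem-loop lies 4884 bases before the annotated end, so its value can include reads far from the coding part.

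H2A pairs with H2B at the faces of the nucleosome. H2ac24 (Hist1h2ap, chr13:21833026-21833507, minus strand) was the most abundant histone gene, at 674, 1196, 733 and 891 in DekCon replicates 1 to 4 and 705, 315, 629.8 and 623 in DekTg replicates 1 to 4. The 2 highest values were those of DekCon replicates 2 and 4 and the lowest was that of DekTg replicate 2, and the groups overlapped between 674 and 705. The log2 fold change was -0.65 (SE 0.22; adjusted p = 0.711 by limma). It was -0.39 without DekTg replicate 2 (adjusted p = 0.537, over a range of 0.445 to 0.93 in all alternatives). H2ac24 held 28.6 to 39.5% of all histone values in DekCon and 14.8 to 28.6% in DekTg. Per kilobase of exon its mean was 1496, against 250.2 for H2ac23, the second in that order, 139.5 for H2ac8 and 138 for H2bc4.

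H2ac8 (Hist1h2ae, chr13:23570517-23571220, minus strand) was lower in every DekTg library. Its values were 96.3, 150.2, 106 and 107 in DekCon replicates 1 to 4 and 88.2, 87.7, 86.4 and 64.05 in DekTg replicates 1 to 4. The highest DekTg value lay below the lowest DekCon value, and the log2 fold change was -0.48 (SE 0.17; adjusted p = 0.711 by limma). Its back-to-back partner H2bc8 showed no such pattern, at 34.2, 27.8, 40.5 and 57.9 in DekCon replicates 1 to 4 and 44.5, 51.7, 52.4 and 19.9 in DekTg replicates 1 to 4, with a log2 fold change of 0.029 (SE 0.29). H2ac6 (Hist1h2ac), which shares its stretch with H2bc4, stood at 129 ± 17.8 in the DekCon libraries and 158 ± 20.6 in the DekTg libraries (SD, n = 4 per group), with a log2 fold change of 0.29 (SE 0.15; adjusted p = 0.727 by limma). Its lowest DekTg value, 138, lay below the highest DekCon value, 148. Of the 15 H2A genes tested, 4 were above 0 and 11 below, with a median of -0.48. H2ac25, with no match in the annotation, had a mean of 71.2, and the remaining H2A genes had means of 0.228 to 11.6.

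H2ac18 and H2ac19 gave the fold changes farthest from 0, in opposite directions. They lie on opposite strands of the chromosome 3 cluster, H2ac18 (Hist2h2aa1) at chr3:96245497-96246082, plus strand, and H2ac19 (Hist2h2aa2) at chr3:96239749-96240276, minus strand. H2ac18 stood at 0, 7.66, 0 and 0 in DekCon replicates 1 to 4 and 18.96, 6.01, 8.73 and 6.30 in DekTg replicates 1 to 4, and H2ac19 at 10.1, 1.91, 2.83 and 17.8 in DekCon replicates 1 to 4 and 0, 0, 0 and 0 in DekTg replicates 1 to 4. Every DekTg library thus had reads at H2ac18 and none at H2ac19, and of the DekCon libraries replicate 2 alone had both. H2ac19 was at least 10.96-fold lower in DekTg, taking 3 reads over the group as the limit that a count of 0 allows, with a limma adjusted p of 0.367. H2ac19 passed the filter through its DekCon libraries alone. H2ac18 had a log2 fold change of 2.54 (SE 0.67; adjusted p = 0.639 by limma). Its 4 DekTg libraries, where it is high, were enough to pass the filter without DekCon replicate 2.

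The pair rests on few reads and on near-identical sequence. H2ac18 had 51 reads and H2ac19 36 over all 8 libraries. Of the 50-base words of the H2ac18 transcript, 89.2% also occur in H2ac19, and 100% of those of H2ac19 occur in H2ac18. Summed, the pair stood at 10.1, 9.57, 2.83 and 17.8 in DekCon replicates 1 to 4 and 18.96, 6.01, 8.73 and 6.30 in DekTg replicates 1 to 4. The means were 10.1 ± 6.10 in the DekCon libraries and 9.999 ± 6.10 in the DekTg libraries (SD, n = 4 per group), the groups overlapped, and the log2 fold change of the sum was 0.058 (SE 0.48; adjusted p = 0.987 by limma). Without DekCon replicate 2, H2ac18 was at 0 in every DekCon library left and was the 1 member past the threshold. It was then at least 10.5-fold higher in DekTg, taking 3 reads over those 3 libraries as the limit (limma adjusted p = 0.0349, beside 0.0401% of all genes called, with 0.0349 to 0.99999 over all alternatives). Without DekCon replicates 2 and 3, H2ac19, at 0 in all DekTg libraries, was the 1 member past it (limma adjusted p = 0.0383, beside 0.0775% of all genes, with 0.0383 to 0.896 over all alternatives). Both calls come from a gene that passed the filter through the group where it is high. How the authors' counting places reads that fit both genes is, in the sources used here, not given. The antisense genes Gm20633 and Gm20632 overlap H2ac18 and H2ac19 on the other strand, and the strand setting is likewise not given. Gm20634 overlaps H2ac18 on the same strand, holds 100% of the 50-base words of H2ac19, and stood at 0, 2.87, 0 and 0 in DekCon replicates 1 to 4 and 7.42, 0, 8.73 and 1.05 in DekTg replicates 1 to 4.

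Near-identical copies occurred in 2 further pairs, both in a stretch of chromosome 13 where H2bc23, H2ac23 and H4c17 are mirrored by H4c18 and H2ac24. H4c18 (Hist1h4n, chr13:21831767-21832196, minus strand) stood at 6.34, 12.4, 10.4 and 11.6 in DekCon replicates 1 to 4 and 9.89, 0, 1.94 and 5.25 in DekTg replicates 1 to 4, with a log2 fold change of -1.53 (SE 0.60; adjusted p = 0.711 by limma). Without 1 library it ran from -2.05 without DekTg replicate 1 to -0.90 without DekTg replicate 2. Its copy H4c17 (Hist1h4m) stood at 0, 0, 1.88 and 0 in DekCon replicates 1 to 4 and 0, 22.8, 2.91 and 0 in DekTg replicates 1 to 4 and did not pass the filter. In DekTg replicate 2 all reads of the pair were at H4c17, and the sum of both was 22.8 there against 4.85 to 12.4 in the other libraries. The log2 fold change of the sum was -0.20 (SE 0.44; adjusted p = 0.945 by limma). H2ac23 (Hist1h2ao) stood at 122, 238, 58.4 and 147 in DekCon replicates 1 to 4 and 171, 36.04, 109 and 79.8 in DekTg replicates 1 to 4, 7.38 to 19.5% of its sum with H2ac24, and its log2 fold change of -0.55 (SE 0.40) ran from -0.91 without DekCon replicate 3 to -0.14 without DekTg replicate 2. The 2 genes share 93.1% or more of their 50-base words. Their sum was 1015 ± 302 in the DekCon libraries and 667 ± 223 in the DekTg libraries (SD, n = 4 per group), with a log2 fold change of -0.64 (SE 0.24; adjusted p = 0.712 by limma). The values of these single genes are uncertain where reads could be split between copies.

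**Figure D3:**
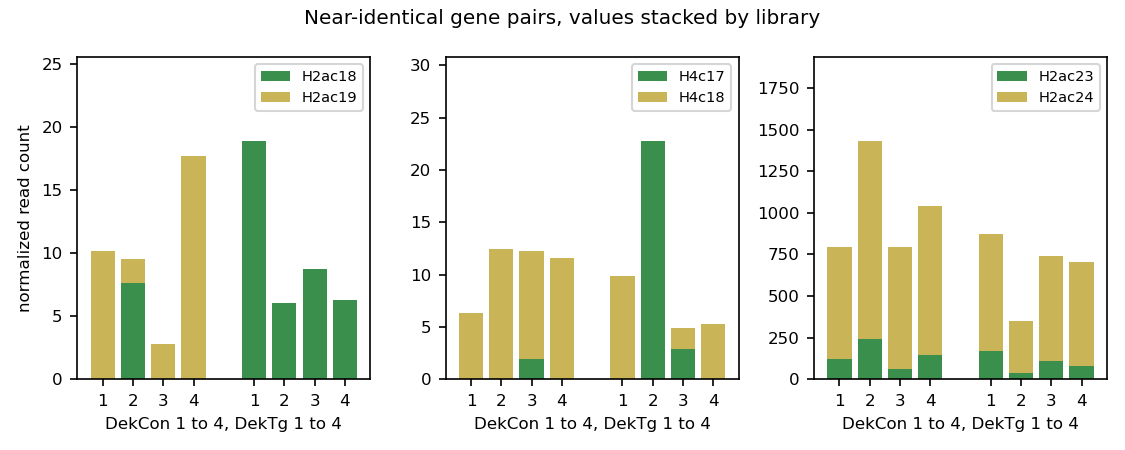
Normalized read counts (vertical axes, from 0) of 3 pairs of near-identical histone genes, stacked for each of the 4 DekCon and 4 DekTg libraries. The reads lie at H2ac19 in DekCon and at H2ac18 in DekTg, with DekCon replicate 2 holding both, while the stacked heights of that pair overlap between the groups. H4c17 takes the whole bar of DekTg replicate 2.

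The tested H2B genes overlapped between the genotypes, apart from H2bc9. H2bc9 (Hist1h2bh, chr13:23541714-23543392, minus strand) stood at 30.4, 21.1, 26.4 and 30.1 in DekCon replicates 1 to 4 and 34.6, 31.2, 40.8 and 36.7 in DekTg replicates 1 to 4. The lowest DekTg value lay above the highest DekCon value by less than 1, and the log2 fold change was 0.40 (SE 0.22; adjusted p = 0.743 by limma). H2bc4 (Hist1h2bc), the class's highest gene, stood at 164, 149, 135 and 149 in DekCon replicates 1 to 4 and 159, 258, 146 and 114 in DekTg replicates 1 to 4, so DekTg replicate 2 was the highest and replicate 4 the lowest of all 8. Its log2 fold change was 0.12 (SE 0.19). H2bc6 (Hist1h2be) stood at 136 ± 14.2 in the DekCon libraries and 122 ± 15.2 in the DekTg libraries (SD, n = 4 per group), and its annotated transcripts overlap those of H1f4 on the same strand. H2bc24 stood at 108 ± 29.1 in the DekCon libraries and 109.7 ± 13.3 in the DekTg libraries (SD, n = 4 per group). The log2 fold changes of these 2 genes were -0.15 (SE 0.15) and 0.052 (SE 0.19), and that of H2bc6 ran from -0.21 without DekTg replicate 2 to -0.089 without DekTg replicate 1. H2bc3 had low values, 2.54, 1.91, 6.60 and 4.63 in DekCon replicates 1 to 4 and 0, 2.40, 0 and 1.05 in DekTg replicates 1 to 4, with a log2 fold change of -1.50 (SE 0.57; adjusted p = 0.711 by limma). H2bc23 stood at 38.4 ± 14.8 in the DekCon libraries and 29.8 ± 29.5 in the DekTg libraries (SD, n = 4 per group). Its DekTg values were 0, 45.6, 63.1 and 10.5 in replicates 1 to 4. The log2 fold change was -1.45 (SE 0.87; adjusted p = 0.767 by limma), and the 0 in DekTg replicate 1 weighs on it. Its transcripts share 97.3% of their 50-base words with Hist1h2br, an annotated gene that is not a member. Of 14 H2B genes tested, 6 were above 0 and 8 below, and H2bc18 was the 1 histone gene at 0 in all libraries.

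H3 and H4 form the core of the nucleosome and carry many of its known modifications. H3c7 (Hist1h3f), H3c6 (Hist1h3e) and H3c4 (Hist1h3d) were the H3 genes with a mean of at least 10. H3c7 stood at 27.9, 27.8, 32.04 and 21.6 in DekCon replicates 1 to 4 and 23.1, 27.6, 29.1 and 12.6 in DekTg replicates 1 to 4, with DekTg replicate 4 the lowest. H3c6 stood at 8.87, 26.8, 9.42 and 18.5 in DekCon replicates 1 to 4 and 20.6, 24.02, 21.3 and 20.999 in DekTg replicates 1 to 4. H3c4 stood at 25.4, 12.4, 12.2 and 17.8 in DekCon replicates 1 to 4 and 21.4, 20.4, 20.4 and 18.9 in DekTg replicates 1 to 4. The DekTg values of H3c6 and H3c4 all lay inside the wider DekCon range, and the log2 fold changes of the 3 genes were -0.28 (SE 0.28), 0.56 (SE 0.33) and 0.30 (SE 0.28). Without 1 library, H3c7 ran from -0.41 without DekTg replicate 3 to -0.03 without DekTg replicate 4. H3c6 ran from 0.35 without DekCon replicate 1 to 0.85 without DekCon replicate 2, and H3c4 from 0.18 without DekCon replicate 3 to 0.51 without DekCon replicate 1. The other 9 H3 genes had means of 0.353 to 2.86. H3c2 and H3c15 lay at 0.24 (SE 0.65) and -0.86 (SE 0.58), and 4 of the 9 H3 genes tested were above 0.

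Among H4 genes, H4c16 was the highest, at 100.1, 72.7, 77.3 and 84.9 in DekCon replicates 1 to 4 and 89.8, 90.1, 63.1 and 99.7 in DekTg replicates 1 to 4. Its log2 fold change was 0.023 (SE 0.18). H4c4 (Hist1h4d) stood at 59.6, 84.2, 85.7 and 56.3 in DekCon replicates 1 to 4 and 63.5, 57.7, 53.4 and 50.4 in DekTg replicates 1 to 4. The DekTg values lay in the lower part of its range, with 63.5 in DekTg replicate 1 above 2 DekCon libraries, and the log2 fold change was -0.32 (SE 0.19; adjusted p = 0.755 by limma). H4c9 (Hist1h4i) stood at 60.9 ± 19.03 in the DekCon libraries and 49.2 ± 15.1 in the DekTg libraries (SD, n = 4 per group), with a log2 fold change of -0.28 (SE 0.26) that ran from -0.53 without DekCon replicate 1 to -0.14 without DekCon replicate 2. H4c8 (Hist1h4h) stood at 12.04 ± 6.93 in the DekCon libraries and 16.6 ± 6.58 in the DekTg libraries (SD, n = 4 per group), with 0.50 (SE 0.39), and ran from 0.27 without DekCon replicate 1 to 0.82 without DekCon replicate 3. H4c6, a gene of low level, stood at 1.85 ± 0.432 in the DekCon libraries and 5.09 ± 3.22 in the DekTg libraries (SD, n = 4 per group), with a log2 fold change of 0.92 (SE 0.52). Of the 10 H4 genes tested, 5 were above 0 and 5 below.

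**Figure D4:**
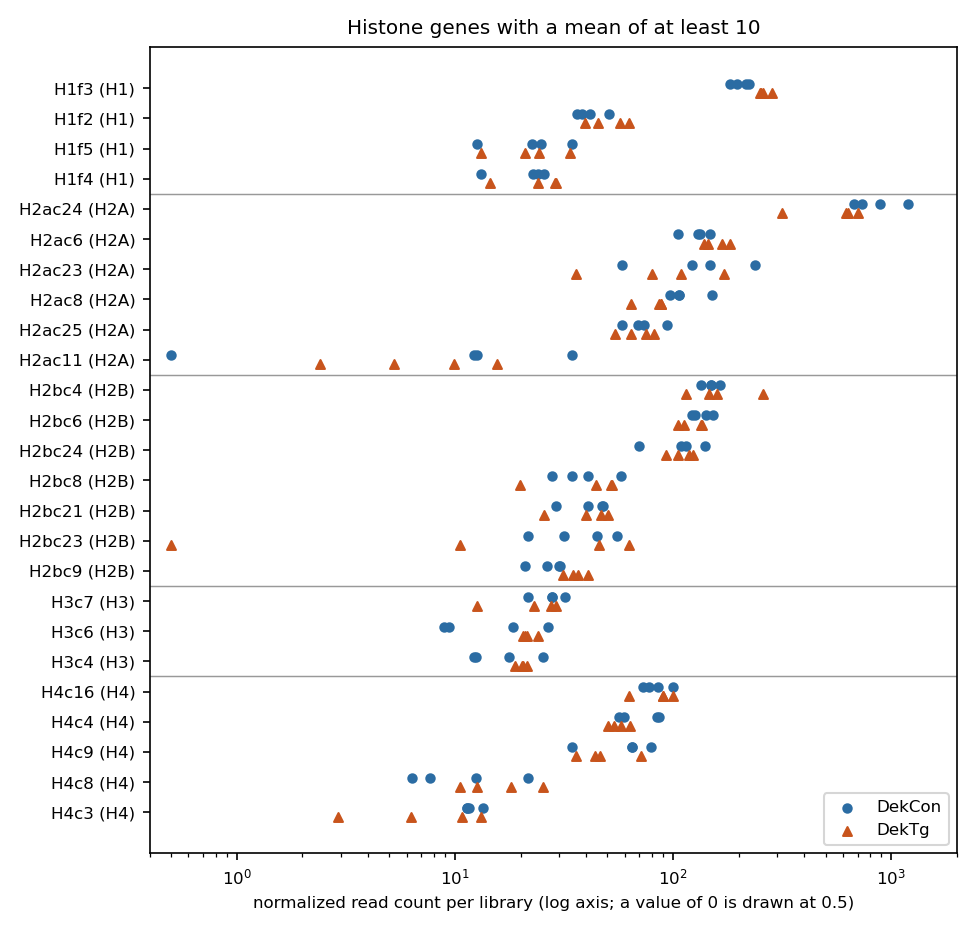
Normalized read count per library (log axis) of the 25 histone genes with a mean of at least 10, by class, for DekCon (circles) and DekTg (triangles). H1f3, H2ac8 and H2bc9 are the genes among them whose groups do not overlap, and H2ac24 lies above all others at 315 to 1196.

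The levels were also set beside the annotated ends of the genes, as a description. Of the 19 genes whose annotated transcript runs past the stem-loop, 14 had a mean of at least 10, against 4 of the 23 that end within 100 bases of the stem-loop and 4 of the 20 with none found. That count is not scaled for length, and the median exon length was 1249, 485 and 402 bases. For those that run past it, the median level was 19.99 per kilobase of exon (range 0.842 to 139.5). It was 8.59 for genes that end at the stem-loop, whose range of 0.378 to 1496 includes H2ac24 and H2ac23, and 30.5 was the highest of the other 21. Genes with no stem-loop found had a median of 4.76. Only annotated transcripts were searched, so a gene whose annotation stops before its stem-loop is counted as having none found. H2ac13, H2bc15 and H4c12 in this group are annotated over 393, 381 and 312 bases of exon, though H2bc21 is annotated over 2620. The share of 50-base words found in other genes moved with this grouping, with a median of 24.8% for genes that run past the stem-loop, 60.4% for those that end there and 84.3% for those with none found. Among all matched genes, 17 of the 29 with under 50% of shared words had a mean of at least 10, and 5 of the 33 with more. The part of read placement in these levels was not tested, and no test was made of a difference in level, since levels across genes are not replicates.

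**Figure D5:**
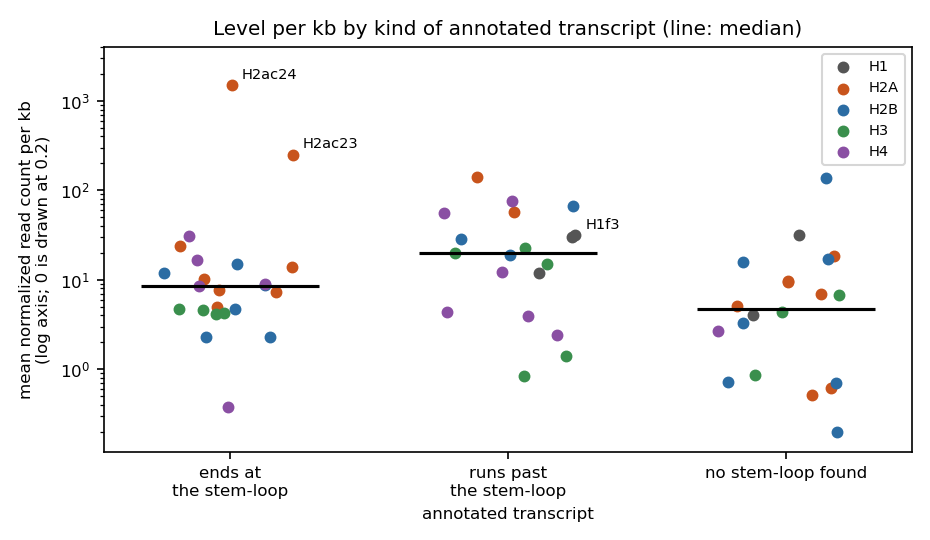
Mean normalized read count per kilobase of exon (log axis) of the 62 matched histone genes, by whether the annotated transcript ends at the stem-loop, runs past it, or has none found, coloured by class, with the median as a line. The medians are 8.59, 19.99 and 4.76, and H2ac24 and H2ac23 stand above the other genes that end at the stem-loop.

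By library, genes that run past the stem-loop held 30.4 to 39.5% of the histone values in DekCon and 38.8 to 48.2% in DekTg. Genes that end at it held 37.003 to 52.01% and 21.03 to 39.7%. Both ranges overlapped between the genotypes, and H2ac24 makes up most of the second. Of the tested genes that run past the stem-loop, 10 of 18 had a log2 fold change above 0, with a median of 0.095. Of those that end at it, 6 of 20 were above 0, with a median of -0.41. The median over all genes tested was 0.0057. Of all 23 genes that end at the stem-loop, 4 had a mean of at least 10. The 20 include H2ac18, H2ac19, H2ac23, H2ac24 and H4c18, whose single values are uncertain where reads could be split between copies. A difference between these kinds of transcript was not tested. The back-to-back H2A and H2B pairs gave 7 pairs with both genes tested, and in 6 of these both log2 fold changes had the same sign. H2ac8 and H2bc8 were the pair with opposite signs. Both changes were smaller than their SE for H2ac11 with H2bc11 and for H2ac12 with H2bc12, as were those of H2bc4 and H2bc21. Both were larger for H2ac15 with H2bc15 and for H2ac23 with H2bc23. No such share was computed for other pairs of genes, so joint change was not tested.

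Genes that make, carry or replace these histones did not pass the test either. Of the 29 tested genes of histone pre-mRNA processing, among them Slbp and the U7 and cleavage factors, 0 passed (2 at an unadjusted p under 0.05, which 6.93% of all genes met), 8 lay above 0 and 21 below, with a median log2 fold change of -0.093. Slbp itself stood at 700.0 ± 75.8 in the DekCon libraries and 603 ± 120.2 in the DekTg libraries (SD, n = 4 per group). Snrpb, which codes for a core protein of spliceosomal ribonucleoproteins also held by U7, stood in DekCon and DekTg at 951 ± 216 and 636 ± 151 (SD, n = 4 each), a log2 fold change of -0.59 (limma adjusted p = 0.707). Cdk2, a kinase that drives entry into S phase with cyclin E, stood at 439 ± 68.4 and 349 ± 33.02 (SD, n = 4 each), a log2 fold change of -0.32 (limma adjusted p = 0.711). Both were the members of smallest p and stood lower in the DekTg mean.

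Histone variants not made in S phase alone had 11 genes tested, with 4 above 0, 0 past the threshold and a median of -0.23. Of the 11, 2 stood at an unadjusted limma p under 0.05, which 6.93% of all genes met. H2az2, one of the genes of H2A.Z, stood at 308 ± 66.9 and 228 ± 27.8 (SD, n = 4 each), a log2 fold change of -0.41 (limma adjusted p = 0.711). H2ax, the variant that is phosphorylated at DNA breaks, stood at 329 ± 156 and 209 ± 82.98 (SD, n = 4 each), a log2 fold change of -0.66 (limma adjusted p = 0.711), and its DekCon mean includes 559.8 in DekCon replicate 2. Without 1 library it ran from -0.85 without DekTg replicate 4 to -0.32 without DekTg replicate 2, the library at 93.7. H3f3a and H3f3b, which both code for H3.3, had log2 fold changes of 0.011 and -0.19. Their groups overlapped.

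Histone chaperones, which bring histones to DNA, had 5 of 23 genes above 0, 0 past the threshold and a median of -0.21. Of the 23, 4 stood at an unadjusted limma p under 0.05, which 6.93% of all genes met. Daxx, a chaperone of H3.3, stood at 116 ± 35.7 and 73.5 ± 20.6 (SD, n = 4 each), a log2 fold change of -0.63 (limma adjusted p = 0.711). Chaf1b, a subunit of the chromatin assembly factor that follows the replication fork, stood at 294 ± 36.6 and 236 ± 9.52 (SD, n = 4 each), a log2 fold change of -0.31 (limma adjusted p = 0.711). Of 30 S phase genes, 0 passed, 1 lay above 0 and 29 below, and the median was -0.28. At an unadjusted limma p under 0.05 stood 4 of the 30, which 6.93% of all genes met. Among all 22610 genes tested with a mean of at least 10, 10478 lay above 0 and 12132 below. Gins2, part of the replicative helicase, stood at 311 ± 43.9 and 238 ± 9.35 (SD, n = 4 each), a log2 fold change of -0.38 (limma adjusted p = 0.711), and Cdc6, which loads that helicase, at 201 ± 45.1 and 137 ± 37.95 (SD, n = 4 each), a log2 fold change of -0.56 (limma adjusted p = 0.711). The S phase sum was 10289.5 to 16210.4 in DekCon and 9069 to 10718 in DekTg. Without DekCon replicate 2 the medians of the processing, variant, chaperone and S phase lists were -0.039, -0.16, -0.087 and -0.12. Without DekCon replicates 2 and 3 they were -0.062, -0.15, -0.033 and -0.076. EdgeR and DESeq2 each called 0 genes of the 4 lists. With all 8 libraries the 4 list medians lay below the median of all genes tested, 0.0057, and that of genes with a mean of at least 10, -0.023.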

How the data were processed

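The deposited table gives 1 signal value per gene and library. Its name calls the values FPKM, but within each library they are whole multiples of 1 step (tolerance 0.001 reads, 99.994% of values), so the values were taken to be read counts per gene after the authors' division by a size factor (1 per library). All histone values were whole; the 25 that were not lie in 6 genes (Dek, Cdc20, Cdk1, Fos, Ifit2 and Csf2). These genes were left out of the recovered reads, and all but Csf2, which fell under the filter below, stayed in the limma fit. The submitters' processing notes name Bowtie 0.12.9, Cufflinks 2.1.1, HTSeq and DESeq2 and the build mm10; what each was used for, and the annotation, is not given in the sources used here. Columns headed DenCon were read as the DekCon samples of the same number.

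Genes with a value of at least 1 in at least 4 of 8 libraries were tested on log2(value + 1) in R 4.3.3 with limma 3.58.1 and its trend option, two-sided, with Benjamini-Hochberg adjustment over 37414 genes, threshold 0.05. The pseudocount understates the change of low genes. EdgeR 4.0.16 and DESeq2 1.42.0 were run on the recovered reads as alternatives, beside other pseudocounts, filters and scalings, the replicate number as a block, libraries 1 and 4 of each group, which resemble each other, averaged or given a term, and each library left out. Summing near-identical copies (at least 80% of 50-base words shared both ways) and leaving out DekCon replicates 2 and 3 together were added after seeing the data. The script was tested on simulated data. Read numbers cover counting error only, since amplified reads are not independent molecules.

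Members and gene lists were chosen with earlier results of these data known, so lists are described by counts and medians. Named in the text are, per class, the 4 members of highest mean, the tested member of smallest p in each direction, and any member past the threshold, and per list the 2 members of smallest p. Other genes named with values, among them H2ac25, H2bc23, H4c17, H1f1, Slbp, H3f3a and H3f3b, were chosen after their values were seen.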

Additional observations from a re-analysis of the deposited data

Results flagged for a closer look

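In 2 of 65 groups of 4 libraries checked, 1 library lay far from the other 3 relative to the range of the group; chance gives about 1 in 20. H2ac8 was at 64.05 in DekTg replicate 4, against 86.4 to 88.2 in the other DekTg libraries. H2ac18 was at 7.66 in DekCon replicate 2 and at 0 in the other DekCon libraries.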

How the results depend on the processing

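The number of histone genes past the threshold was 0 in 21 of 23 alternatives. It was 1, H2ac18, without DekCon replicate 2 (0 to 1 over left-out libraries) and 1, H2ac19, without DekCon replicates 2 and 3; each is at 0 in all libraries of 1 group there and passed the filter through the other. The median log2 fold change of the tested members ran from -0.19 to -0.025 over all alternatives. The count of members whose groups do not overlap, 4 of 53, was 8 with libraries 1 and 4 averaged (beside 10.3% of all genes), 11 without DekCon replicates 2 and 3 (beside 17.2%) and 4 to 8 without 1 library (7.55 to 15.1% of members, beside 6.23 to 9.28% of all genes). Smaller groups overlap less by construction. The log2 ratio of the summed H1 values was 0.31 and 0.19 without H1f3. The other class sums moved by less than their spread, though the log2 ratio of H2A went from -0.46 to -0.23 without H2ac24. A stem-loop lay within 300 bases of the annotated end in 41.9% of matched genes, against 37.1% within 100.

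Leaving out 1 library moved the log2 fold change of 18 of the 35 named genes (Dek apart) by a factor of over 1.5 or turned its sign. In all, 9 changed sign in at least 1 alternative, none of them past the threshold in any. Without 1 library, H1f5 ran from -0.28 to 0.20, H1f4 from -0.044 to 0.38, H2bc4 from -0.10 to 0.29, H2bc24 from -0.14 to 0.19, H2bc8 from -0.13 to 0.35, H3c2 from -0.28 to 0.75 and H4c16 from -0.056 to 0.16. H3c2 was also -0.018 with libraries 1 and 4 averaged, -0.17 with edgeR and -0.18 with DESeq2. Without DekCon replicates 2 and 3, H1f5 was 0.29, H1f4 was -0.048, H2bc24 was -0.033, H2bc8 was -0.17, H3c4 was -0.064, H4c16 was -0.12 and H4c9 was 0.014. The causes were not tested.

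With the replicate number as a block, the count past the threshold was 0 and the median log2 fold change -0.093. Over all genes tested, the deviations of same-numbered libraries from their group means had correlations of -0.0028 to 0.02. In both groups, though, the summed neutrophil and monocyte markers were lower in libraries 1 and 4 than in libraries 2 and 3. They stood at 4357, 9956, 10111 and 4361 in DekCon replicates 1 to 4 and 2802, 4967, 12434 and 2735 in DekTg replicates 1 to 4. Whether same-numbered libraries share a step of handling was not tested. With 2525884 to 4101132 reads a library, members with a mean under 10 rest on few reads, and a difference there can be missed. The smallest difference that could be detected was not computed for members of any level. H2ac24 and H1f3, with means of 721 and 233 over all libraries, both had a limma adjusted p of 0.711.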
